A study of Mus musculus with 11 samples.

Results

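The regions described here are stretches of open chromatin outside chromosome 13 that were more accessible, in both strain backgrounds, in mouse embryonic stem cells that carried the DBA/2J version of a chromosome 13 interval than in cells that carried the C57BL/6J version. ATAC-seq reads accessibility from where the Tn5 transposase can insert adapters. Levels are given as CPM, the count of a region divided by the summed counts of its library and multiplied by 1000000. A region was selected when the mean CPM of B6-13D2 was at least 1 and at least 1.5 times that of B6, the mean of D2 was at least 1.5 times that of D2-13B6, and the libraries did not overlap in either comparison. On chromosomes 1 to 19 without 13, 1259 of 229016 regions met this rule, out of 248336 regions in the whole table.

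The 4 lines were C57BL/6J (B6, cell line B6 5-1, 3 libraries), DBA/2J (D2, cell line D2 5-5, 3 libraries) and a reciprocal pair of congenics. B6-13D2 (cell line QJ 6-1 of B6.D2-(rs30079041-rs51756099)/Bakr, 2 libraries) has the D2 interval on the B6 background. D2-13B6 (cell line XE 2-4 of D2.B6-(rs29224292-rs13469455)/Bakr per the sample labels, 3 libraries) has the reverse, a B6 interval in D2; the series text names rs51756099 as its end marker. Each genotype is 1 cell line and its libraries are technical replicates, so that every error and p-value measures the spread between libraries and a difference between genotypes is a difference between cell lines. All cells grew in medium with 15% serum, LIF and inhibitors of MEK (PD0325901, 1 μM) and GSK3 (CHIR99021, 3 μM).

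A difference outside chromosome 13 that follows the genotype at chromosome 13 is called a trans effect, because the DNA that differs by design lies on another chromosome. Mouse chromosome 13 holds a large cluster of genes for KRAB zinc finger proteins, DNA-binding proteins that recruit TRIM28 and the histone methyltransferase SETDB1 to chosen sequences, many of them in transposable elements. Heterochromatin built at such sites carries H3K9me3 and is poorly accessible to Tn5.

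The central sequences of the 6 regions with the highest rank show what kinds of DNA are involved. Rank was set by the smaller of the ratios in both backgrounds, with 0.1 CPM added to each mean. The sequences are GRCm38 (mm10) reference, plus strand, at most 300 bases, and capitals mark ATGCAAAT (the octamer bound by OCT4 and other POU factors), ACAAAG (a SOX core) and TGCGCA on either strand.
chr6:23085175-23085474: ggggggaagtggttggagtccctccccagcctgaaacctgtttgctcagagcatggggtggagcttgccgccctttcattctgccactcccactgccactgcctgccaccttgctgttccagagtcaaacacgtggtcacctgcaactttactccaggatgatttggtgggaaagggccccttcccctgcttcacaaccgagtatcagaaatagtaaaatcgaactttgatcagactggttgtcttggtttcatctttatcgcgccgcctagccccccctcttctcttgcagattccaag
chr6:50196933-50197232: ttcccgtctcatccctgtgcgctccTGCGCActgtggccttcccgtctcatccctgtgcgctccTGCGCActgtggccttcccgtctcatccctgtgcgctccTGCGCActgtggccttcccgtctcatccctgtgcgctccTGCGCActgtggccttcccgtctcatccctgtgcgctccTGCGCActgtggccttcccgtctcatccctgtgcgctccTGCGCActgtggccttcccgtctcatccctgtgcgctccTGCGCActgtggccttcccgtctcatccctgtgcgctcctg
chr6:23089973-23090272: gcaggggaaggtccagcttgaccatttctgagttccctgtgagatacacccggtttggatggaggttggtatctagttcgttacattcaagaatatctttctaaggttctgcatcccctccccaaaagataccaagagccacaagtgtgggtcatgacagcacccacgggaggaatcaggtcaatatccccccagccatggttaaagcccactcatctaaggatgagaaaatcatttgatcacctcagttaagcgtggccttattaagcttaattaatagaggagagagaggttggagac
chr8:3339386-3339573: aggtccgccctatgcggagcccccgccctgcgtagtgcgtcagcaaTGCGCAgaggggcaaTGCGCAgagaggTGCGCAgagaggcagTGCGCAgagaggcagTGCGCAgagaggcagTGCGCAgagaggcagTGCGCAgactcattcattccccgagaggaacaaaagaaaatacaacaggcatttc
chr14:68116557-68116856: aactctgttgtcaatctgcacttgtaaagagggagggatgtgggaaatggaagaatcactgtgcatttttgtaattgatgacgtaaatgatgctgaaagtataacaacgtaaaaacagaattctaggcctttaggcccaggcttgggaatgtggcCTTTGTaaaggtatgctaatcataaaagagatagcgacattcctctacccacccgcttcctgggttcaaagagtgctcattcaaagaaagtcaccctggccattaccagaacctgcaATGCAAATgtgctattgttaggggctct
chr17:50077423-50077623: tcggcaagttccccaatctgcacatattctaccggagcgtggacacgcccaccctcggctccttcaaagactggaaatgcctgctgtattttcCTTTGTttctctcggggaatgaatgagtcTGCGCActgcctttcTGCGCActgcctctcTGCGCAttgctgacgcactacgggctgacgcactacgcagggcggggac
The sequence of rank 2, in a region over an Mpp6 coding exon, is a tandem repeat with a unit of 39 bases, and TGCGCA occurs 7 times in it. TGCGCA also occurs 7 times in the sequence of rank 4 and 3 times in that of rank 6, and both of those regions are fully soft-masked, that is, marked as repeats in the reference. Ranks 1 and 3 overlap Aass and rank 5 overlaps Nefm, and the Nefm window holds an octamer close to its end.

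The labelled cell type was checked at the promoters of 8 stem cell genes, and all were open in every line. Summed over the 8, the libraries had 449 to 463 CPM in B6, 233 to 265 CPM in D2-13B6, 452 to 463 CPM in B6-13D2 and 371 to 396 CPM in D2. Pou5f1, which encodes OCT4, had 94.9 CPM in B6, 88.8 with B6-13D2, 39.1 with D2-13B6 and 69.5 for D2, and D2-13B6 was also lowest at 6 of the other 7, all but Klf4. Promoters of the 4 fibroblast genes listed (Col1a1, Col1a2, Thy1 and Pdgfra) were each highest in D2-13B6, with summed levels of 71.4 to 77.4 CPM in B6, 100.4 to 112 CPM in D2-13B6, 62.7 to 69.5 CPM in B6-13D2 and 70.1 to 81 CPM in D2. Those of 4 primitive endoderm genes had 83.2 to 88.9 CPM in B6, 66.2 to 72.5 CPM in D2-13B6, 81.5 to 83.2 CPM in B6-13D2 and 75.4 to 86.8 CPM in D2. None of the 16 genes was at 0 in any line. The D2 background part of the rule rests on D2-13B6 being low, and the part of these marker differences in the selection was not tested. In bulk libraries fewer cells of a type and less signal per cell cannot be told apart. Total counts were between 15198496 and 43042955 in the 11 libraries.

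Rank 1, chr6:23084869-23085782, lies in an intron of Aass, which encodes an enzyme of lysine breakdown. Its CPM were 1.14, 0.395 and 0.890 in B6 and 4.40 and 2.92 in B6-13D2. They were 1.70, 1.21 and 1.13 in D2-13B6 and 5.13, 3.87 and 5.41 in D2. All 5 libraries with the D2 interval lay above all 6 with the B6 interval, and the ratios of means were 4.54 in the B6 background and 3.57 in the D2 background. These ratios, like all interval ratios below, are among the values that chose the regions and carry no test.

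Rank 3, chr6:23088821-23091426, overlaps a coding exon of the same gene. It had 5.06, 4.08 and 4.50 CPM in B6 and 5.51, 5.26 and 3.70 in D2-13B6, against 13.2 and 15.0 in B6-13D2 and 15.1, 14.3 and 19.7 in D2. On the CPM scale the lines with the B6 interval had nearly the same level here, 4.54 ± 0.490 (SD, n = 3) in B6 beside 4.82 ± 0.979 (SD, n = 3) in D2-13B6. In the TMM-scaled fit described below, the log2 fold change of D2-13B6 over B6 was 0.41 (SE 0.20, adjusted p = 0.0873, edgeR). Another Aass region, chr6:23079124-23080848, had ratios of 2.01 and 2.36, and no other region of the table lay between the first and last of the 3.

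Rank 2, chr6:50196337-50197829, covers the tandem repeat shown above and overlaps a coding exon of Mpp6, a membrane scaffold gene, and Gsdme, a gasdermin gene. Its CPM were 1.98, 2.37 and 2.11 in B6 and 6.54 and 9.68 in B6-13D2. They were 2.79, 2.73 and 4.01 in D2-13B6 and 11.5, 11.7 and 8.70 in D2. The lowest library with the D2 interval was above the highest with the B6 interval, and the ratios were 3.77 and 3.34.

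Rank 5, chr14:68115756-68117659, overlaps a coding exon of Nefm, the medium neurofilament subunit. It had 4.21, 4.87 and 4.12 CPM in the B6 libraries, 13.4 and 15.7 with B6-13D2, 4.39, 6.06 and 5.00 with D2-13B6 and 15.3, 12.7 and 14.9 for D2. The lines with the D2 interval were close, at 14.6 ± 1.63 (SD, n = 2) in B6-13D2 and 14.3 ± 1.37 (SD, n = 3) in D2. With the B6 interval, D2-13B6 was above B6 in the TMM-scaled fit described below. The log2 fold change was 0.56 (SE 0.19, adjusted p = 0.0149, edgeR).

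Ranks 4 and 6 were small and weak. Rank 4, chr8:3339386-3339573, lies between genes and had 0.256, 0.0658 and 0.281 CPM in B6 and 1.15 and 1.22 in its congenic B6-13D2, and 2.01, 2.03 and 2.35 in D2 and 0.558, 0.582 and 0.994 in its congenic D2-13B6. Rank 6, chr17:50077423-50077623, is in an intron of Rftn1, a lipid raft gene, and had 0.293, 0.329 and 0.187 CPM in B6 and 0.139, 0.186 and 0.343 in D2-13B6, against 0.899 and 1.81 in B6-13D2 and 0.805, 0.703 and 0.801 in D2. At both regions the intervals did not overlap, but these levels rest on few counts, and the ratios (5.90 and 2.99, and 5.02 and 3.45) are correspondingly coarse. At rank 6 the ratio in the B6 background was 3.33 without B6-13D2 replicate 2.

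Of ranks 7 to 10, chr12:88339654-88342221 at the start site of Gm18620 was the most accessible in the B6 background, with 7.71 ± 1.45 CPM (SD, n = 3) in B6 against 19.5 ± 0.354 (SD, n = 2) for B6-13D2. In the D2 background it had 3.31 ± 0.433 CPM (SD, n = 3) for D2-13B6 against 9.16 ± 0.413 (SD, n = 3) for D2. Here the D2 and B6 libraries overlapped, and B6-13D2 and D2-13B6 lay at the extremes. Rank 8, chr3:33808742-33809523 over a Ttc14 coding exon, had ratios of 2.67 and 3.28. Rank 9, chr4:23460377-23460600, had ratios of 2.92 and 3.08 on low counts; the former became 1.75 without B6-13D2 replicate 1 and the latter 5.68 without D2-13B6 replicate 3. Rank 10, chr16:18010630-18011893, had ratios of 2.45 and 2.5, and in the D2 background it was above Gm18620, with 4.93 CPM for D2-13B6 and 12.3 for D2.

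**Figure D1:**
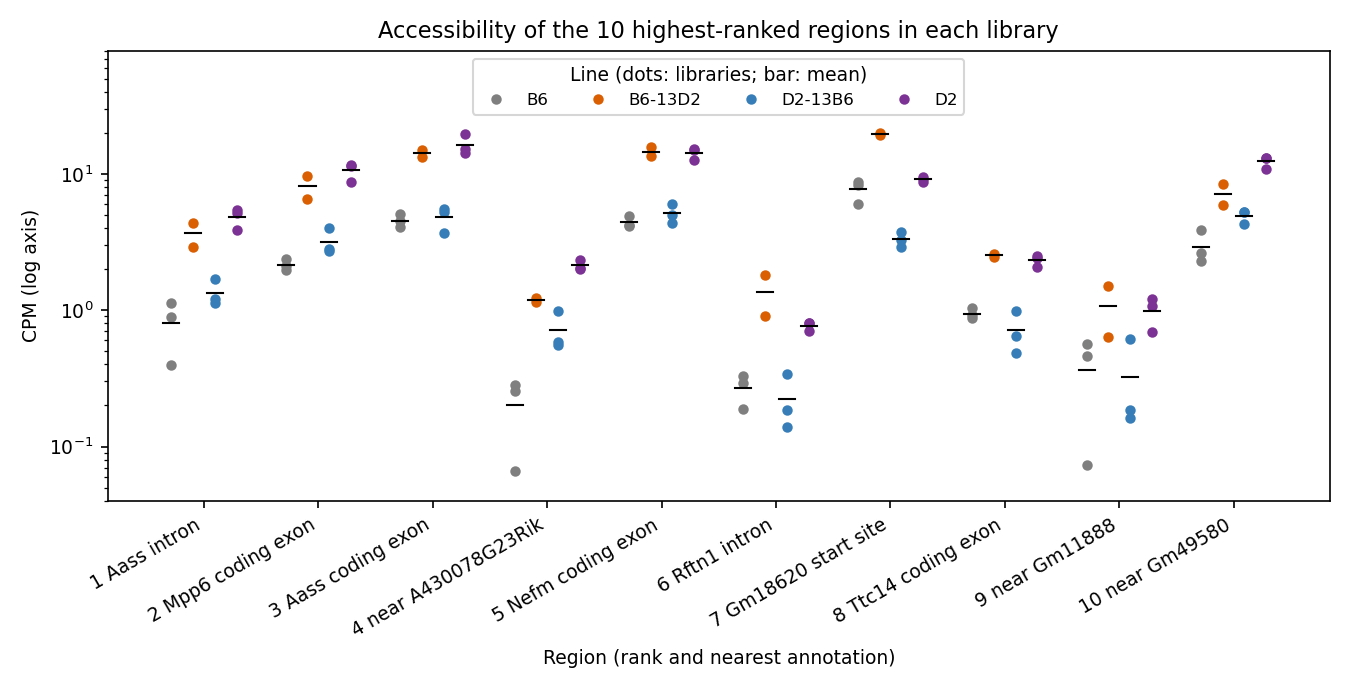
CPM (log axis) of the 10 highest-ranked regions in each library; dots are libraries, bars are line means, and colours are lines. In each region the B6-13D2 dots lie above the B6 dots and the D2 dots above the D2-13B6 dots, as the rule requires, while the order of B6 and D2-13B6 varies.

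Most selected regions changed less than these. The median level over the 1259 regions was 1.48 CPM in B6 and 1.06 in D2-13B6, against 2.5 in B6-13D2 and 1.96 in D2, beside 1.93, 1.61, 1.90 and 1.79 in the same order of lines over all regions outside chromosome 13. The median ratio was 1.68 in the B6 background and 1.81 in the D2 background, and 79 regions (6.27%) reached 2 in both. Only 4 reached 3 in both. All 5 libraries with the D2 interval exceeded all 6 with the B6 interval in 433 regions (34.4%).

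Both parts of the rule were much wider than their overlap. B6-13D2 was higher than B6 by the rule in 6887 regions, 3.01% of those outside chromosome 13, and D2 was higher than D2-13B6 in 31387, or 13.7%. The 1259 regions in both were 18.3% of the first set and 4.01% of the second. A further 576 regions of the first set, 8.36%, were lower in D2 than in D2-13B6 by the mirrored rule, which held for 10.8% of all regions. These numbers describe the selection and are read no further. The mirrored rule found 1700 regions lower with the D2 interval in both backgrounds.

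The selection depended on how libraries were scaled. Median ratios over all regions were 0.992 in the B6 background and 1.13 in the D2 background on the CPM scale, and the latter was 1.02 after TMM scaling. With TMM-scaled totals 759 regions met the rule, of which 741 were among the 1259, and with RLE size factors 574 did, of which 556 were. Leaving out B6-13D2 replicate 2 gave 2398 regions (1003 shared), and leaving out D2-13B6 replicate 3 gave 2144 (1208 shared). D2-13B6 replicate 2 had the lowest median CPM of the 11 libraries, 1.30. Without it 1059 regions met the rule, 983 of them shared. A left-out library also drops out of the condition on overlap, which loosens the rule.

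**Figure D2:**
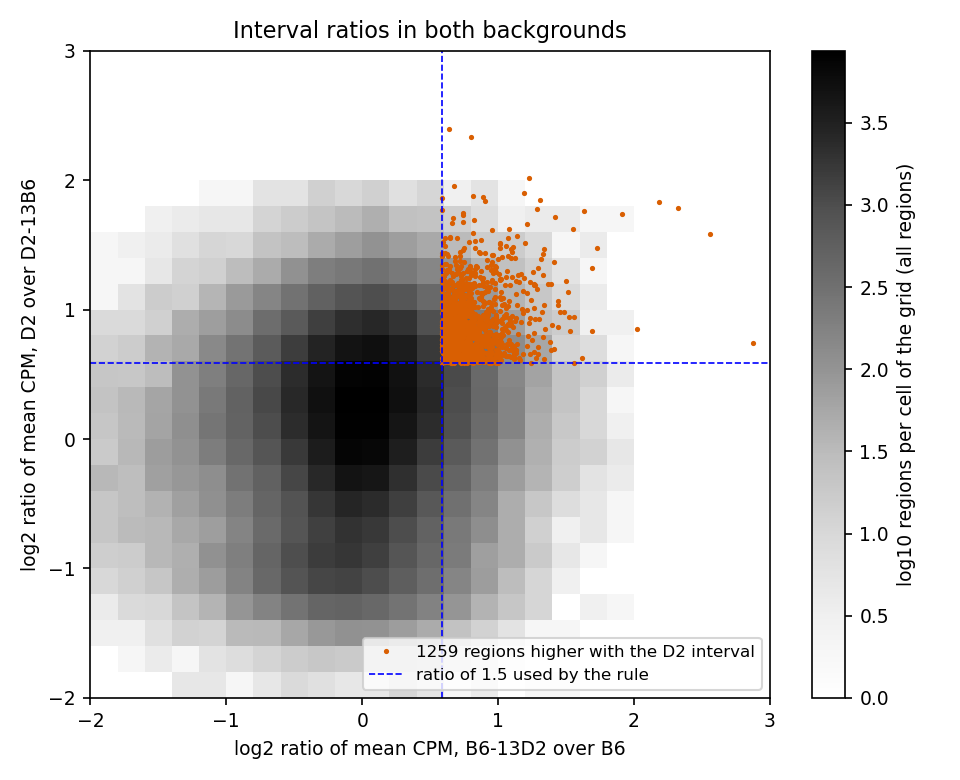
Log2 ratios of mean CPM, B6-13D2 over B6 on the horizontal and D2 over D2-13B6 on the vertical axis; grey cells count all regions (grid from -2 to 2), orange points are the 1259 selected regions and dashed lines mark a ratio of 1.5. Most selected regions sit close to the thresholds, with a median of 1.68 and 1.81, and only 4 reach a ratio of 3 in both backgrounds.

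Closest to the threshold on its inner side were chr10:128444347-128444781, with 1.25, 1.87, 0.897 and 1.53 CPM in B6, B6-13D2, D2-13B6 and D2, and chr6:29881947-29882623 in an Ahcyl2 intron, with 3.27, 4.90, 1.46 and 2.57 CPM. Closest on its outer side were chr12:88335866-88336425, with 1.21, 3.32, 1.12 and 1.68 CPM, and chr15:12047541-12048247, with 2.18, 3.27, 1.51 and 2.54 CPM.

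The most accessible selected regions were large. The region over Hydin, a gene of motile cilia, chr8:110518695-110524102, had 29.8, 29.5 and 29.8 CPM in the B6 libraries, 43.7 and 45.7 with B6-13D2, 11.3, 7.97 and 12.7 with D2-13B6 and 39.1, 38.4 and 38.8 for D2. Its level was lower in every D2-13B6 library than in any library of the other lines, and its ratio was 1.5 in the B6 background and 3.64 in the D2 background. The intergenic region chr4:53337604-53341793 had 11.1, 8.88 and 9.18 CPM in B6 and 21.8 and 18.2 in its congenic B6-13D2, and 39.9, 40.4 and 43.2 in D2 and 21.5, 18.2 and 20.1 in its congenic D2-13B6. B6 was lowest and D2 highest here, and B6-13D2 overlapped D2-13B6. The intergenic regions chr5:149651230-149657467 and chr1:171476716-171479477 had ratios of 2.75 and 1.98, and of 1.84 and 1.91. At the latter the lines with the same interval were close, with 14.2 ± 2.19 CPM (SD, n = 3) in B6 and 14.3 ± 0.772 (SD, n = 3) in D2-13B6, and with 26.2 ± 1.79 (SD, n = 2) in B6-13D2 and 27.3 ± 0.262 (SD, n = 3) in D2.

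Few of the regions lay at promoters of coding genes, which also held for regions lower with the D2 interval. Within 1000 bp of any annotated start site were 9.93%, beside 15.5% of all regions and 7.65% of the lower regions. Within 1000 bp of a protein-coding start site were 62 selected regions (4.92%), beside 11.3% of all and 3.65% of the lower. The highest-ranked of these, chr5:73632282-73632777 at Lrrc66, had 0.916, 1.25 and 1.92 CPM in B6 and 0.976, 0.536 and 0.960 in D2-13B6, against 3.5 and 3.03 in B6-13D2 and 2.04, 1.35 and 2.66 in D2. The next were chr1:66935284-66935633 at Myl1, a skeletal muscle myosin light chain, with ratios of 2.22 and 2.32, and chr1:65061846-65062331 at Crygd, a lens crystallin, with 2.09 and 2.46. Edn3, a peptide ligand of neural crest cells (chr2:174768767-174769361), followed with 1.93 and 2.07, and St18, a zinc finger transcription factor (chr1:6729098-6729715), with 1.94 and 1.83. All 5 were weakly accessible, at or below 4.06 CPM in every line mean. Among all regions with a mean over the lines above 4.01 CPM, the B6 background part of the rule held for 0.814%. The D2 background part held for 16.9% of them. Over all regions the parts held for 3.01% and 13.7%, and the role of this in the promoter share was not tested.

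Coding exons were overlapped by 95 regions (7.55%), beside 12.2% of all and 3.06% of regions lower with the D2 interval. The region's centre was in the exon for 2.14%, beside 3.51% of all. After the Mpp6, Aass, Nefm and Ttc14 regions the next by rank was chr6:47298319-47298830 in Cntnap2, a neuronal adhesion gene, with 1.72, 0.855 and 0.703 CPM in the B6 libraries, 1.95 and 3.19 with B6-13D2, 0.906, 0.629 and 0.994 with D2-13B6 and 1.71, 1.81 and 2.35 for D2. Introns held 36.9% (37.4% of all) and intergenic DNA 43.9% (38.6% of all). The median width was 588 bp beside 551, GC content 46.4% beside 48.2%, and the soft-masked share 23.5% beside 15.6%. CpG observed over expected was 0.223 beside 0.222. No test was made of these shares.

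Near genes of the listed families the share of regions selected lay on both sides of that over all regions, often on small counts. Regions were assigned to the gene with the nearest start site, and the share selected is to be read against 0.550% of all regions outside chromosome 13. Germline genes (202 regions near 37 of the 40 genes listed) and genes of the two-cell-like state (20 regions) had none selected, and neither did Hox genes. Zinc finger genes named Zfp had 17 of 1951 (0.871%), each near a different gene. The highest-ranked, chr2:150439773-150440174 in an intron of Zfp442, had 1.61, 1.78 and 2.20 CPM in B6 and 4.05 and 3.08 in its congenic B6-13D2, and 1.36, 2.27 and 1.89 in D2 and 1.02, 1.23 and 0.754 in its congenic D2-13B6. Pluripotency genes had 2 of 142 (1.41%), near Sall4 and Zfp42. The region chr2:168779804-168781089, 11861 bp from the start of Sall4, a stem cell transcription factor, had means of 5.84, 9.09, 3.41 and 5.23 CPM in B6, B6-13D2, D2-13B6 and D2.

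Among imprinted genes 1 of 147 regions was selected, chr12:109538597-109539913, which lies 1088 bp from the start of Meg3, the maternally expressed RNA of the Dlk1-Meg3 domain. It had 3.92, 3.42 and 4.55 CPM in B6 and 4.41, 4.31 and 3.94 in D2-13B6, against 8.19 and 8.35 in B6-13D2 and 6.71, 5.52 and 7.55 in D2. The ratios were 2.09 and 1.56, and the lines with the B6 interval overlapped. Heterochromatin genes had 2 of 122 (1.64%), both near Pphln1, a subunit of the HUSH silencing complex. The higher-ranked, chr15:93443774-93444022, had means of 0.966, 1.84, 0.463 and 0.928 CPM.

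Receptor families contributed 12 of 1262 olfactory receptor regions (0.951%) and 6 of 592 vomeronasal receptor regions (1.01%). Protocadherin regions gave 4 of 203 (1.97%) and solute carriers 10 of 2655 (0.377%). Cytochrome P450 genes had 1 of 364 (0.275%) and serpin genes 1 of 131 (0.763%). The highest-ranked olfactory receptor region, chr5:143134037-143135554 over Olfr718-ps1, had 4.58, 5.26 and 5.95 CPM in the B6 libraries, 11 and 13 with B6-13D2, 5.55, 5.99 and 6.03 with D2-13B6 and 14.0, 13.5 and 14.2 for D2. The highest-ranked vomeronasal, protocadherin, solute carrier, cytochrome P450 and serpin regions, near Vmn1r-ps7, Pcdh15, Slc25a40, Cyp2ab1 and Serpinb13, had ratios from 1.71 to 2.52 in the B6 background.

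Some selected regions stood in runs. Of the 1259, 157 (12.5%) had another within 20 kb, and 35 fell in 11 runs of 3 or more. All 4 regions of the table in chr5:143126781-143135554, beside Olfr718-ps1, were selected, with ratios of 1.73 to 2.28 in the B6 background and 1.99 to 2.37 in the D2 background. All 3 regions of the Aass run and all 3 over C7, a complement gene (chr15:5022679-5026575), were selected too. On chromosome 19, 4 of 7 regions in chr19:38368083-38390483 were selected, and chr19:38386421-38388723 had means of 3.63, 10.3, 2.92 and 6.82 CPM. Over Ahcyl2 on chromosome 6, 3 of 4 regions were selected, including its start site with 5.80, 10.3, 3.03 and 5.01 CPM. Neighbouring regions share local DNA and are not independent observations.

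By chromosome the share selected ran from 0.448% to 0.711% on 17 chromosomes and was 0.128% on chromosome 11, with 20 of 15671 regions. On chromosome 11 the B6 background part of the rule held for 2.46% of regions, beside 2.49% to 3.51% on the others, and the D2 background part for 1.56%, beside 12.5% to 17.2%. Chromosome 11 also took a larger share of counts in D2-13B6 (8.77% ± 0.157, SD, n = 3) than in D2 (7.62% ± 0.312, SD, n = 3), B6 (7.81% ± 0.0454, SD, n = 3) and B6-13D2 (7.74% ± 0.0864, SD, n = 2), and its median ratio of D2 over D2-13B6 was 0.925, beside 1.11 to 1.18. Whether this share accounts for the low count there was not tested; without chromosome 11, 1239 regions remained.

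**Figure D3:**
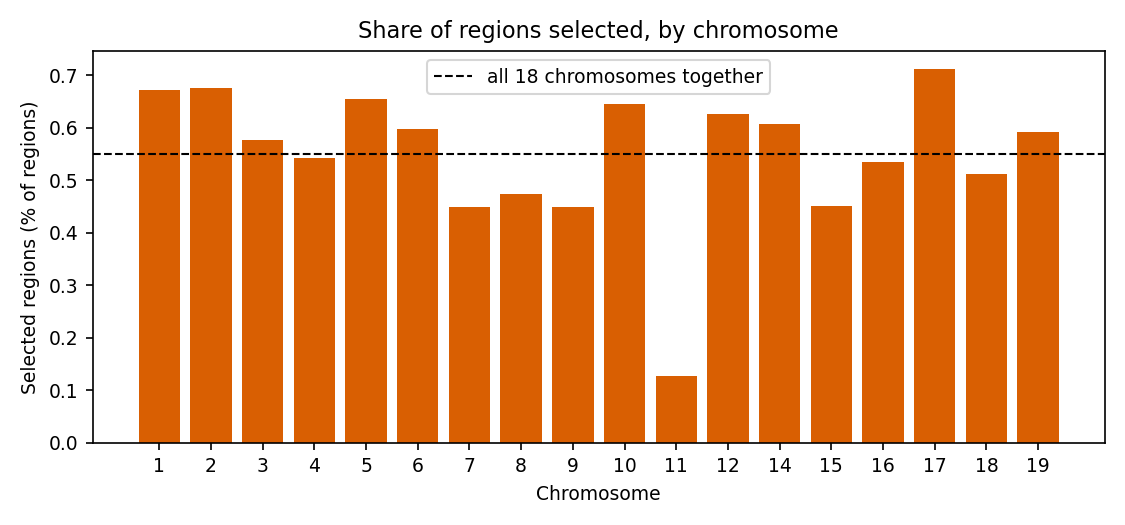
Share of the regions on each chromosome (percent) that were selected, for the 18 chromosomes outside 13 and the sex chromosomes; the dashed line is 0.550%, the share over all of them. Chromosome 11, at 0.128%, stands below the others, which lie between 0.448% and 0.711%.

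Motifs were counted in the central 300 bp on either strand. ATGCAAAT was found in 74 selected regions (5.88%), beside 3.22% of all regions outside chromosome 13, 1.65% of regions lower with the D2 interval, 4.01% of the B6 background part and 4.51% of the D2 background part. ACAAAG was found in 32.1%, beside 26.5% of all, 31.8% of the B6 part and 27.7% of the D2 part. TGANTCA, the AP-1 site, was found in 8.18%, beside 13.7% of all, 14.3% of the B6 part, 7.06% of the D2 part and 46.2% of regions lower with the D2 interval. The GC box GGGCGG was found in 9.21%, beside 12.7% of all. Its share was 6.87% in the B6 part, 12.9% in the D2 part and 5.94% in regions lower with the D2 interval. The AP-1 share of the selected regions was thus near that of the D2 part alone. D2-13B6 had the lowest Pou5f1 promoter level, and the part of that in the octamer share was not tested. With TMM-scaled totals the octamer share was 6.19%. A match is only a match of letters, and no test was made.

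**Figure D4:**
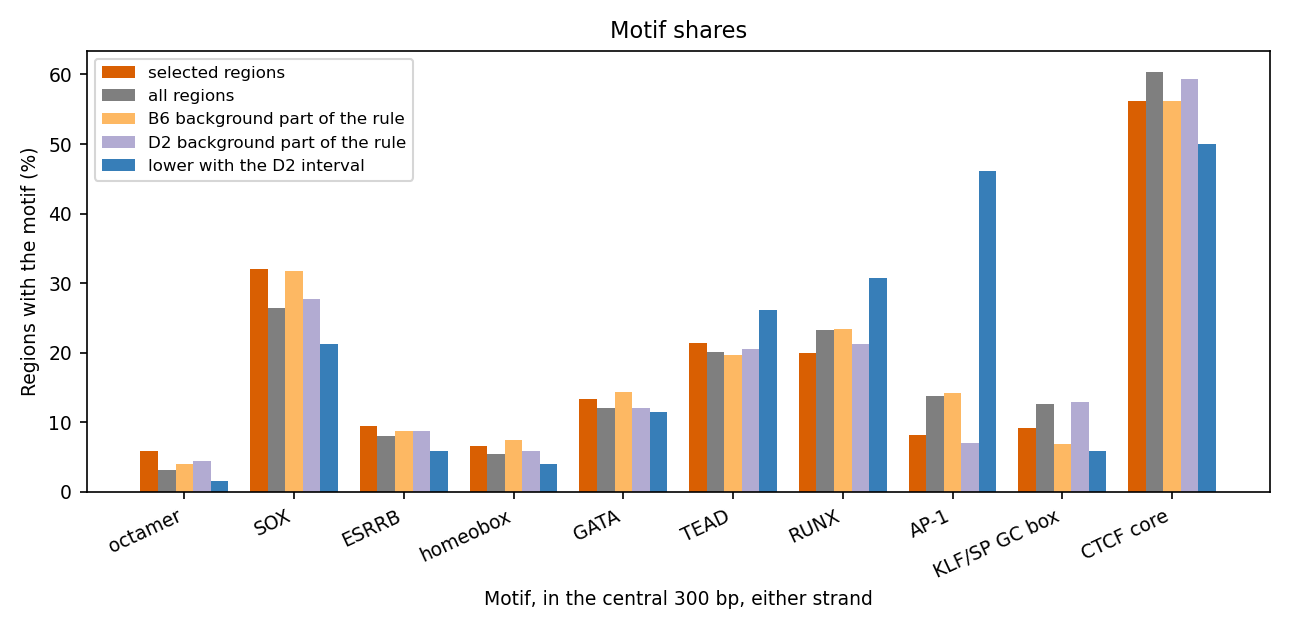
Share of regions (percent) with each motif in the central 300 bp on either strand, for the selected regions, all regions outside chromosome 13, each part of the rule alone and regions lower with the D2 interval. The octamer is at 5.88% in selected regions and 3.22% in all, and the AP-1 site is at 8.18%, 13.7% and, in lower regions, 46.2%.

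The octamer matches of the 5 next-ranked regions that hold one show how alike some of them are. The reference sequences below, plus strand, 60 bases with the octamer in capitals, belong to regions near Gm29721, Cpeb2, Gm28386, Gm32431 and Gm47930.
chr17:6581411-6581470: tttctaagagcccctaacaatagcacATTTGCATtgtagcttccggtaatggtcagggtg
chr5:43203181-43203240: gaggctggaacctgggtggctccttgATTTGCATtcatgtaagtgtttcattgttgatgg
chr1:77532434-77532493: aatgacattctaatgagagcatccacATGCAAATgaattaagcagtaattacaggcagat
chr16:50994173-50994232: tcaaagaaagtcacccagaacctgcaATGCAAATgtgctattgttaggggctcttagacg
chr10:25887982-25888041: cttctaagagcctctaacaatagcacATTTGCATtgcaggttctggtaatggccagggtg
Those near Gm29721, Gm32431 and Gm47930 share a stretch around the octamer with the Nefm window, on either strand, whereas those near Cpeb2 and Gm28386 do not.

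The match to the Nefm window was followed over all regions, a search added after the sequences had been seen. Among all regions outside chromosome 13, 477 on 18 chromosomes matched it at 75% identity or more over at least 100 bases. Of these, 26 (5.45%, beside 0.550% of all) were selected, including the Nefm region that started the search. The 477 had a median ratio of 1.03 in the B6 background (0.992 for all regions) and 1.56 in the D2 background (1.13 for all). The octamer was held by 65.6% of them. The 451 matching regions that were not selected had medians of 1.01 and 1.53. By their medians the copies were thus higher in D2 than in D2-13B6 by more than all regions, and nearly level between B6-13D2 and B6. A ratio of 1.5 was reached by 11.7% of the 477 in the B6 background, beside 5.48% of all. In the D2 background 55.3% reached it, beside 18.7%. The 26 selected regions are among these, and the median level of the 477 in B6 was low, 1.22 CPM beside 1.93. No test was made of this. Of the 74 selected regions with the octamer, 20 (27.0%) matched this window, and without matching regions the octamer shares were 4.38% and 3.09%.

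In all 15 of the 40 highest-ranked windows, that of Nefm among them, matched at least 50 regions, and these were not all alike. Over all regions 0.550% were selected, with median ratios of 0.992 and 1.13. The windows of ranks 4 and 6 matched 69 and 67 regions, 59 of them shared. In each set 4 were selected (5.80% and 5.97%), with medians of 1.02 and 1.63, and of 1.02 and 1.64. The rank 1 window matched 309 regions, 5 of them selected (1.62%), with medians of 1.09 and 1.41. That of rank 9 matched 2776, 8 of them selected (0.288%), with medians of 1.07 and 1.01. Only this window of the 15 had a D2 background median under that of all regions. Ranks 16 and 18 had 0.749% and 0.541% selected, with medians of 0.949 and 1.40, and of 0.961 and 1.24. Of the 40 highest-ranked windows, 16 matched no other region, among them the Mpp6 tandem repeat, Gm18620, Ttc14, Lrrc66, Myl1 and Cntnap2. TGCGCA, a motif picked after these sequences were seen, occurred at least once in 38 selected regions (3.02%), beside 3.35% of all, and at least 3 times in 5 (0.397%), beside 0.0397% of all. Ranks 2, 4 and 6, whose sequences led to the motif, are among these 5, so nothing is read from the latter share.

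**Figure D5:**
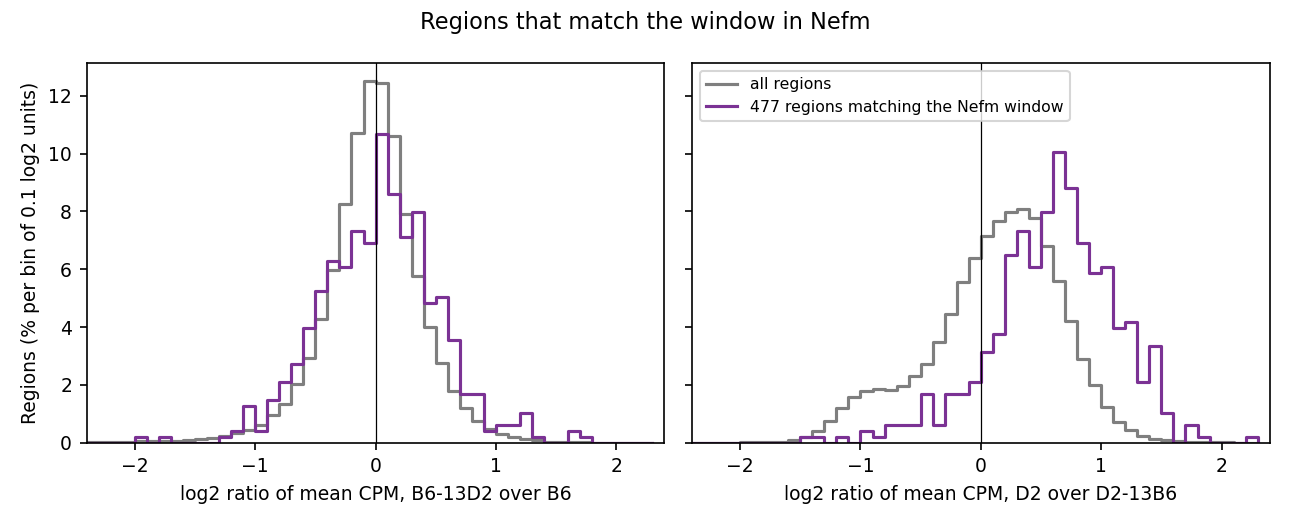
Distribution of log2 ratios of mean CPM (percent of regions per bin) in the B6 background (left) and the D2 background (right), for all regions (grey) and the 477 regions matching the Nefm window (purple). The purple distribution is shifted to higher ratios on the right, with a median of 1.56 against 1.13. On the left its median is close to that of the grey, with 1.03 against 0.992.

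Some windows matched sequence of chromosome 13. At 90% identity over at least 100 bases, 138 selected regions (11%) matched sequence at 58 to 68 Mb of chromosome 13, beside 8.39% of all. At 90% over at least 200 bases 5.72% did, beside 4.67%, and at 95% over at least 200 bases 27 (2.14%) did, beside 2.13%. Regions lower with the D2 interval in both backgrounds had larger shares at each of these settings, 13.5%, 11% and 6.47%. Of the 10 highest-ranked windows, those of rank 5, at Nefm, and rank 6, in Rftn1, met the last of these settings, at 98.1% over 207 bases and 98.7% over 236. At the looser setting used above, these windows also matched 477 and 67 of the regions outside chromosome 13. No other stretch of similar size was searched, so a likeness particular to chromosome 13 cannot be read from these shares. Whether reads from the interval contributed to counts elsewhere was not tested.

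The lines were next compared across backgrounds within the same interval, which the rule did not use, although the same libraries entered it. With the B6 interval, D2-13B6 was lower than B6 at an adjusted p under 0.05 (edgeR quasi-likelihood test, Benjamini-Hochberg) in 242 regions (19.2%), beside 20.1% of all regions tested, and higher in 79 (6.27%), beside 21.6%. The median log2 fold change was -0.25, beside -0.13. With total counts in place of TMM, 471 were lower (37.4%), beside 34.7% of all, and 37 higher (2.94%), beside 16.7%, and the median over all regions moved to -0.43. With the D2 interval, D2 was lower than B6-13D2 in 201 (16%), beside 7.24%, and higher in 51 (4.05%), beside 11.6%, with a median log2 fold change of -0.31 beside -0.00. The rule asks for a low B6 and D2-13B6 and a high B6-13D2 and D2, and the same libraries are compared here. The selection itself can thus shift these shares and medians from those of all regions. Nothing is read from them in either contrast. Without B6-13D2 replicate 1 the 252 called regions became 136, and without replicate 2 they became 112.

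The commonest order of the 4 line means was D2-13B6, B6, D2, B6-13D2 from low to high, in 724 regions (57.5%). In 270 (21.4%) B6 was above D2, and in 127 (10.1%) the order was B6, D2-13B6, B6-13D2, D2 from low to high. The mean of D2 was above that of B6 in 989 regions, and the median ratio of D2 to B6 was 1.27, beside 0.906 over all regions. The rule asks for a low B6 and a high D2, each in its own comparison, and so favours both these orders and this ratio. Nothing is read from them.

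Background differences were large at some regions. The intergenic region chr19:61311847-61314063 had 11.2, 11.8 and 12.3 CPM in B6 and 22.2 and 26.6 in its congenic B6-13D2, and 7.02, 8.44 and 6.07 in D2 and 2.63, 2.59 and 2.43 in its congenic D2-13B6. It was lower in the D2 background with either interval, with log2 fold changes of -1.89 (SE 0.18, adjusted p = 8.87e-14, edgeR) and -1.64 (SE 0.18, adjusted p = 2.98e-10, edgeR). The region chr3:86839086-86842097 in an intron of Dclk2, a neuronal kinase, had log2 fold changes of -1.72 (adjusted p = 4.38e-12, edgeR) and -2.08 (adjusted p = 2.83e-13, edgeR).

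In the other direction, chr17:6571184-6572175 in Gm29721 had 1.87, 1.12 and 1.45 CPM in B6 and 3.74, 4.59 and 3.6 in D2-13B6, against 2.20 and 2.92 in B6-13D2 and 9.86, 9.57 and 10.3 in D2. The log2 fold change of D2 over B6-13D2 was 2.08 (SE 0.24, adjusted p = 7.91e-10, edgeR). The region chr1:58321974-58323088 over a coding exon of Aox2, an aldehyde oxidase, had 1.70 in the same comparison (adjusted p = 1.12e-07, edgeR). With the B6 interval, chr11:31126694-31127489 was higher in D2-13B6 by 2.02 (SE 0.26, adjusted p = 6.65e-10, edgeR) and chr4:53337604-53341793 by 1.33 (SE 0.17, adjusted p = 8.75e-10, edgeR). Chromosome 11 as a whole took a larger share of counts in D2-13B6 (8.77%) than in B6 (7.81%). The part of this in the value of the chr11 region was not tested.

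An interaction of interval and background was called at an adjusted p under 0.05 (edgeR) in 6 of the 1259 regions (0.477%). Of these, 4 had the larger interval difference in the B6 background and 2 in the D2 background. Over all regions tested 6.54% were called, and since both interval effects chose the regions nothing is read from the lower share. The values of single regions below have the same limit and are descriptions only. At Hydin the interaction was -1.12 on the log2 scale (SE 0.25, adjusted p = 0.00335, edgeR), with the larger interval difference in the D2 background. At chr10:59381604-59381894 it was 2.22 (SE 0.54, adjusted p = 0.00791, edgeR): the CPM were 0.293, 0.132 and 0.328 in the B6 libraries, 2.25 and 1.44 with B6-13D2, 0.558, 1.07 and 0.994 with D2-13B6 and 1.33, 1.46 and 1.60 for D2. At the start site of Cd59a (chr2:104095511-104097708), an inhibitor of the complement membrane attack complex, it was 0.89 (SE 0.26, adjusted p = 0.0244, edgeR), and the CPM were 5.64, 6.12 and 5.06 in B6 and 17.3 and 15.1 in its congenic B6-13D2, and 13.4, 12.9 and 13.3 in D2 and 7.11, 8.13 and 6.96 in its congenic D2-13B6. Over a coding exon of C7 (chr15:5022679-5024890) it was -0.82 (SE 0.26, adjusted p = 0.0387, edgeR).

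Among these 4 the Hydin call alone held on leaving out each of the 11 libraries in turn, with adjusted p of at most 0.0427 (edgeR). The chr10 call was lost without B6-13D2 replicate 1 (adjusted p = 0.0866, edgeR). The Cd59a call was lost on leaving out any of 6 libraries, with adjusted p of up to 0.135 (edgeR): B6 replicates 1 and 3, B6-13D2 replicates 1 and 2, D2-13B6 replicate 2 and D2 replicate 1. The C7 call was lost for 8, with adjusted p of up to 0.144 (edgeR), all but D2-13B6 replicates 2 and 3 and D2 replicate 2. The C7 call was also lost with RLE size factors (adjusted p = 0.0793, edgeR) and with the replicate block (adjusted p = 0.0576, edgeR). The count of 6 became 3 without B6 replicate 1 or 3 or D2 replicate 1, 2 without either B6-13D2 library and 10 without D2-13B6 replicate 3.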

How the data were processed

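ATAC-seq counts for 248336 regions in 11 libraries were read as the authors deposited them, as whole-number counts without normalization. Per the file headers, duplicate and mitochondrial reads had been removed. Per the submitters' processing notes, the build was mm10 and the tools included BWA 0.7.5, MACS 1.4.2 and edgeR 3.34.1. The treatment of multiply mapped reads, the Tn5 offset and read or fragment counting are not given in the sources used here. Coordinates are printed as the table lists them.

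Regions and gene lists were chosen with earlier results of these data known. No test was made of the interval ratios, which chose the regions. Within-interval contrasts and the interaction used edgeR 4.0.16 (R 4.3.3): TMM, filterByExpr, robust quasi-likelihood fit of all 11 libraries, Benjamini-Hochberg over 246840 regions. Fits were tested on simulated data. DESeq2 1.42.0, RLE, total counts, no filter, leaving out libraries and a replicate block were alternatives. Annotation was GENCODE M21, sequence GRCm38, similarity by BLAST+ 2.17.0. Chi-square per degree of freedom between libraries of a line was 2.06 to 6.33, so none was a copy. Same-numbered libraries of different lines correlated at -0.0486 to 0.0683, so the numbers pair nothing.

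Named regions were the 10 highest-ranked, the 5 highest-ranked within 1000 bp of a coding gene's start site, the 5 over a coding exon, the 4 most accessible, the highest-ranked per gene list, 2 on each side of the threshold, and the 2 smallest adjusted p per direction and contrast.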

Additional observations from a re-analysis of the deposited data

Results flagged for a closer look

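An interaction of interval and background was called in edgeR at 6 selected regions. Both interval effects chose these regions, so the values are descriptions only. The log2 interaction (effect in the B6 background minus effect in the D2 background) was -1.12 at chr8:110518695-110524102 over Hydin, 2.22 at chr10:59381604-59381894, 0.891 at the Cd59a start site and -0.821 at chr15:5022679-5024890 over C7. It was 1.12 at chr11:35077978-35079143 (adjusted p = 0.025, edgeR), an intergenic region 42081 bp from the start of Slit3, with means of 1.77, 5.21, 3.69 and 5.55 CPM in B6, B6-13D2, D2-13B6 and D2. It was 1.33 at chr5:150491436-150492056 (adjusted p = 0.033, edgeR) in Fry, with means of 0.891, 3.63, 1.48 and 2.67 CPM. These last 2 regions were named after their values were seen. Each of the 2 calls was lost on leaving out any of 6 libraries, with adjusted p of up to 0.136 and 0.158 (edgeR). Chromosome 11 as a whole took a larger share of counts in D2-13B6 (8.77%) than in D2 (7.62%). The part of this in the value of the chr11 region was not tested.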

How the results depend on the processing

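The 1259 regions became 759 with TMM-scaled totals, 574 with RLE size factors, 79 at a ratio of 2, 790 at a minimum of 2 CPM and 2176 without the condition on overlap. They were 1430 at a minimum of 0.5 CPM and 1239 without chromosome 11. A left-out library also drops out of the condition on overlap, which loosens the rule. Leaving out 1 library gave 1059 (without D2-13B6 replicate 2) to 2398 (without B6-13D2 replicate 2).

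Regions called for D2-13B6 against B6 (321) became 508 with total counts and 248 to 317 on leaving out 1 library. For D2 against B6-13D2 (252) leaving out 1 library gave 112 to 295 (112 and 136 without B6-13D2 replicates 2 and 1). For the interaction (6) it gave 2 to 10, and the other settings 5 to 7. With RLE size factors 5 of 6 interaction calls were positive, and with total counts 2 of 7. With the replicate block the 3 counts were 327, 254 and 5; the library numbers pair no samples, and the block fit moved no count past 1.5 times.

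Ratios of named regions stayed above 1 under each alternative, which on leaving out a library the condition on overlap fixed in advance. TMM scaling moved the median D2 background ratio of all regions only from 1.13 to 1.02. A ratio of 1.5 or more could thus hardly fall below 1, and nothing is read from this. Of 320 values, 305 moved by less than 1 SD. With 15198496 counts in the shallowest library, regions near 1 CPM rest on few counts, and 2 selected regions had at most 3 counts in every D2-13B6 library, so that their ratio in the D2 background is imprecise. Errors between libraries cover technical spread only.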
